A study of Mus musculus and Rattus norvegicus with 2 samples.

Results

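Small RNA fragments that begin exactly at the 5′ end of 28S rRNA were examined in sperm of the rat and the mouse. They were chosen by reads: the 29 nt sequence with the most reads among the piRNA-labelled sequences of the rat library (11645 reads) gave the first 18 nt, and every read that starts with those bases was kept, whatever its label. This gave 516 of 137388 rat sequences, with 97451 of 2102735 reads, and 2 of 86644 mouse sequences, with 511 of 691381 reads. The sperm were purified from the cauda epididymis, the distal part of the duct in which sperm mature. There was 1 library from C57BL/6 mice aged 2 months and 1 from Sprague Dawley rats of 450 g, described as young adults, each made from RNA of 18 to 45 nt. The sources used here do not say how many animals were pooled. No difference between the species has a replicate error, no test was made, and the 95% intervals cover counting error only. Species also cannot be told apart from library, so each comparison is one of these 2 libraries.

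The ribosome's large subunit contains 28S rRNA, which is cut from a long precursor that also holds the 18S and 5.8S rRNAs. Its 5′ end is set when the second internal spacer is removed from the precursor, and in the finished ribosome this end pairs with the 3′ part of 5.8S rRNA. Fragments of rRNA are a large part of the small RNA of mature sperm, in which most ribosomes have been lost. That these bases are the 28S 5′ end is textbook knowledge, and no rat rRNA reference was used.

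The sequences below show the shared start, some rungs of the length ladder, namely the 5 with most reads and those at 23 and 41 nt, which stand above the lengths beside them, and the longest member. Lower case marks the 18 nt by which members were found, and capitals mark the bases that follow.

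Shared start, 18 nt: cgcgacctcagatcagac

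Rung of 23 nt: cgcgacctcagatcagacGTGGC

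Rung of 29 nt: cgcgacctcagatcagacGTGGCGACCCG

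Rung of 30 nt: cgcgacctcagatcagacGTGGCGACCCGC

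Rung of 34 nt: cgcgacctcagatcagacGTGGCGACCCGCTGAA

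Rung of 35 nt: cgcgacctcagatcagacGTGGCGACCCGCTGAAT

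Rung of 36 nt: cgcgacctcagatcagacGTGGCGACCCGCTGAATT

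Rung of 41 nt: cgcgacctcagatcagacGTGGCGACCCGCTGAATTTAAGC

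Longest member, 55 nt: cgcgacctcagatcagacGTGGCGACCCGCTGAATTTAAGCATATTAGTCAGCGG

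Members held 4.63% of the listed rat reads (interval 4.61 to 4.66) and 0.0739% of the listed mouse reads (0.0676 to 0.0806), so that the rat share was 62.7-fold higher. In the rat, this start was the second most abundant of 49247 distinct 18 nt starts, behind a start with 117952 reads and ahead of one with 64424. In the mouse it ranked 91 of 45153. These values chose the members or follow from the choice, so they are a description. The mouse total of 511 has a Poisson interval of 468 to 557. Its reads were 510 of the 18 nt sequence and 1 read of 20 nt, which carries the substitution G19A, counted from 1 at the 5′ end.

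The rat excess was absent among the shortest reads. Of all reads of 18 to 20 nt, members made up 0.787% in the rat (932 reads, interval 0.737 to 0.839) and 1.35% in the mouse (511 reads, 1.23 to 1.47). The order was reversed at 18 nt alone, with 0.579% in the rat and 2.58% in the mouse. At 19 nt the rat had 629 member reads and the mouse none listed, and at 20 nt the shares were 0.188% and 0.00838%. Over 18 to 25 nt the shares were 0.452% in the rat (0.436 to 0.469) and 0.420% in the mouse (0.385 to 0.458). No listed mouse member had 21 nt or more. Between 29 and 36 nt the rat had 90252 member reads, 8.45% of all its reads of those lengths, and the mouse 0 of 447336 reads, which allows a share of up to 0.000671% with 3 counts as the limit. This zero holds only for sequences that the table lists. Mouse identifiers run to 167458, 78279 of them are not listed in the table used here, and 2535 listed mouse sequences have no count, of which 0 are members. The rat listing has gaps too: its identifiers run to 200389, and 63001 of them are not listed. The lowest identifier with a count was 4 in the mouse and 1 in the rat. Mouse sequences numbered below 4, if any, are not in the shares. Among the top 10 rat members identifiers rose as reads fell, from 3 with 23277 reads to 238 with 1238. The mouse members were 211 with 510 reads and 68877 with 1. If numbering follows reads throughout, the missing lowest mouse numbers would be its most abundant sequences. The mouse share and the fold difference between the libraries would then depend on them. Longer mouse reads of this end under other identifiers were not analysed here.

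Rat member lengths ran from 18 to 55 nt and formed 2 main groups, one at 29 and 30 nt and one at 33 to 36 nt. Counting every member read of a length, 36 nt was the most frequent, with 23875 reads, or 24.5% of the member reads (interval 24.2 to 24.8). Reads of 35 nt numbered 21143, those of 34 nt 14925 and those of 33 nt 5045. In the shorter group, 29 nt held 11921 reads and 30 nt 11436. The Poisson intervals of the last pair, 11708 to 12137 and 11227 to 11648, did not overlap, so these lengths differed by more than counting error. Together 29 and 30 nt held 24.0% of the member reads, and 34 to 36 nt held 61.5%.

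The lengths between and beyond these groups held few reads. There were 1506 reads of 31 nt and 401 of 32 nt, together 1.96% of the member reads. Few reads passed base 36: of the 26104 reads that reached base 36, 91.5% ended there. Of the 1453 reads that reached base 41, 98.4% ended at it, after 2 reads at 38 nt, 9 at 39 nt and 45 at 40 nt. At the short end, 23 nt held 1547 reads and 19 nt 629, while 25 nt held 12. Reads of 18 to 25 nt made up 3.03% of the members (2.92 to 3.13). The majority bases at the ends of the leading lengths were G at 29, C at 30, A at 34, and T at 35 and 36.

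**Figure D1:**
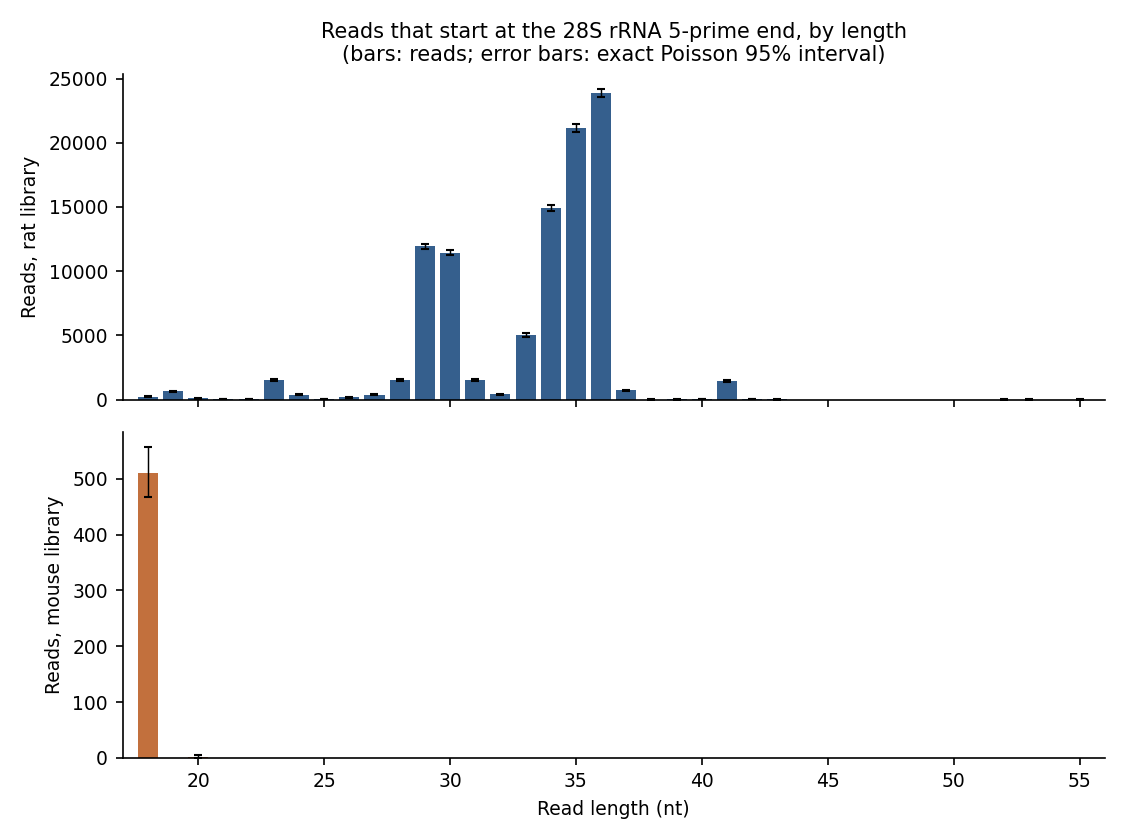
Reads of the members by length (x axis, nt) in the rat library (upper panel) and the mouse library (lower panel), on linear axes of different scale, with exact Poisson 95% intervals as error bars. The rat bars rise at 29 and 30 nt and again from 33 to 36 nt, where the highest bar is 23875 reads, and the mouse bars consist of 510 reads at 18 nt and 1 at 20 nt.

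Members were a large minority of some length classes of the whole rat library. They made up 35.9% of all rat reads of 36 nt, 25.3% of those of 35 nt, 19.3% of those of 34 nt and 25.5% of the 5613 reads of 41 nt. Among reads of 30 nt, the most common length of the library, they made up 4.09%. The mouse member of 18 nt made up 2.58% of all mouse reads of that length, against 0.579% for the same sequence in the rat, where it had 218 reads.

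Nearly all rat reads lay on a single ladder, in which each longer sequence extends the shorter one by bases of the same template. A rung here is the sequence formed by the most frequent base at each position. There were 29 rungs with reads, holding 94548 reads or 97.0% of the member reads (96.9 to 97.1). The other 487 sequences held 2903 reads. The 10 most abundant sequences, all rungs, held 93.9%, and the top 5 held 83.2%. Of the 516 sequences, 235 had 1 read and 88 had at least 10. The 3 members longer than 45 nt, of 52, 53 and 55 nt with 1 read each, followed the same template as far as base 43. Beyond it these 3 reads alone set the majority base, so their match there was largely fixed in advance.

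Compared with other abundant RNAs of the rat library, the lengths were more spread and the labels more mixed than is typical. The label part follows in part from the choice of members through a piRNA-labelled sequence. Over the 50 most abundant other 18 nt starts, taken by reads alone, the most frequent length held a median of 49.8% of a start's reads, against 24.5% for the members, and 4 of the 50 had a lower value. The members had 6 lengths that each held at least 5% of their reads, against a median of 4, and 6 of the 50 starts had more. These are positions in a list of starts and were not tested.

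The deposited labels split one ladder into 3 RNA classes. In the rat, 64.3% of the member reads (62615, in 383 sequences) were labelled mRNA, 23.3% rRNA (22707, in 109 sequences) and 12.4% piRNA (12129, in 24 sequences). The piRNA-labelled reads include the 11645 of the sequence by which members were chosen. A piRNA is a small RNA of the germline that guides PIWI proteins, typically against transposons, and an mRNA codes for protein. Both mouse sequences were labelled piRNA. The median share under the leading label over the 50 other rat starts was 99.2%, and 4 of the 50 had a lower share than the members' 64.3%. Those starts were taken by reads alone, whereas the choice of members guaranteed 11645 piRNA-labelled reads. This comparison therefore follows in part from the choice.

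The label changed between some neighbouring rungs, while between others, such as those from 30 to 34 nt, it stayed mRNA. The exact sequence of 36 nt (23277 reads) was labelled mRNA, the one of 35 nt (20481 reads) rRNA, the one of 34 nt (14434 reads) mRNA, the one of 30 nt (11223 reads) mRNA and the one of 29 nt (11645 reads) piRNA. Of the 29 rungs, 23 were labelled mRNA, 4 rRNA and 2 piRNA, the latter at 24 and 29 nt. The database entry differed in 27 of 28 neighbouring pairs of rungs, and 8 entries were used in all. By length, the rRNA label held 98.3% of the reads of 35 nt and 96.4% of those of 28 nt, but 0.297% of those of 36 nt and 0.355% of those of 34 nt. The piRNA label held 98.1% of the reads of 29 nt and 0.533% of those of 30 nt.

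Over all members the rat reads were assigned to 11 entries, of which 7 were mRNA entries, 2 rRNA entries and 2 piRNA entries. The mRNA entry with the most member reads took 23665 of them, which were 84.1% of all reads assigned to it. For the leading piRNA entry, 98.7% of its 11871 reads were members. That entry holds the sequence of 11645 reads by which members were chosen, so this share follows from the choice. An rRNA entry took 22320 member reads, 4.97% of its 449150 reads, and the other rRNA entry took 387. The sources used here do not state which rule chose among entries that match equally well.

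The members weighed on the label classes of the rat library as a whole. They made up 13.3% of all rat reads labelled mRNA and 2.10% of those labelled rRNA. Of the rat piRNA-labelled reads of 26 to 32 nt, 13.4% began with T (8531 of 63627, interval 13.1 to 13.7), and without the members, which begin with C, 16.4% did (16.1 to 16.8). Members were chosen through a piRNA-labelled sequence that begins with C, so a rise was fixed in advance. Only its size is described. In the mouse, where no member was of that length, the share was 70.2%. A uridine at the first base, written T here, is the usual start of piRNAs.

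**Figure D2:**
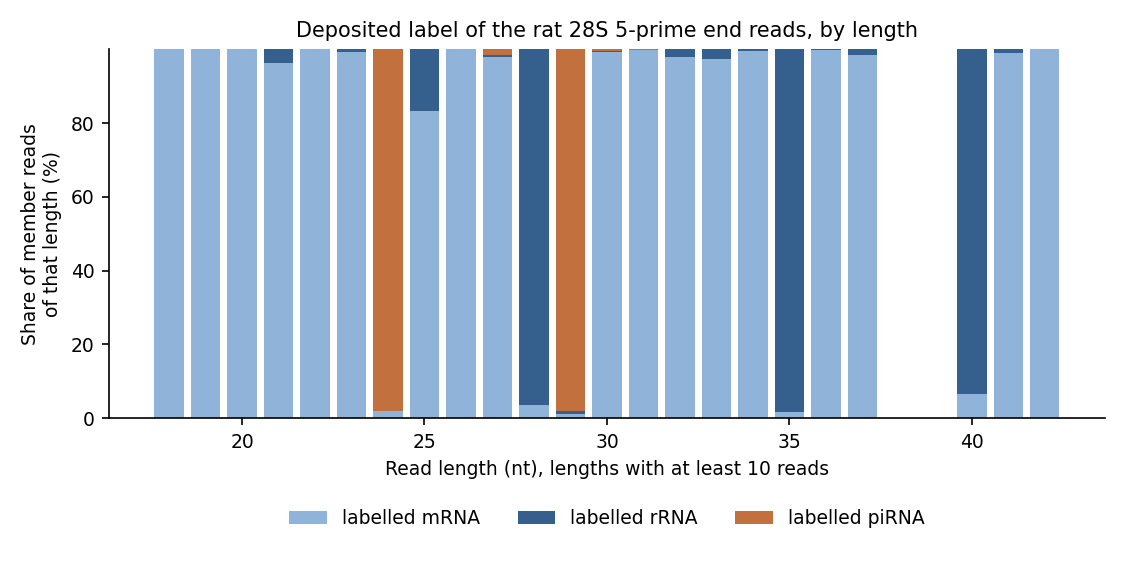
Share of the rat member reads at each length (x axis, nt, lengths with at least 10 reads) that carry the deposited label mRNA, rRNA or piRNA (stacked bars, percent). The bars change colour almost as a whole at some lengths: those of 28, 35 and 40 nt are almost all rRNA, those of 24 and 29 nt almost all piRNA, and the others at least 83.3% mRNA.

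Starts were concentrated on 1 base. This start was chosen through its rat reads, so its lead over its neighbours follows in part from the choice and is a description. Reads that begin up to 30 bases before or after the end were matched by 18 nt of the same template, which gave 105031 rat reads including the members. Of these, 92.8% began exactly at the end (92.6 to 92.9) and 97.5% within 1 base of it. Counted over distinct sequences, 58.1% began at the end (54.8 to 61.4). Reads with extra bases before the end numbered 4721 (4.49%) and those that began after it 2859 (2.72%). The start 1 base upstream, with 4433 reads, was the largest other start, followed by those 2 bases downstream (853 reads), 1 downstream (529) and 7 downstream (430).

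The upstream reads are shown by their most abundant sequence, of 31 nt with 820 reads, and by the start of the read that reached farthest, 12 bases before the end. Capitals mark bases before the 28S 5′ end.

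One base upstream: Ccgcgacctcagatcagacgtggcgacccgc

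Farthest upstream, to the end of the shared 18 nt: CCTCCTCTGGACcgcgacctcagatcagac

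Unlike the members, every read of the rat upstream starts carried the rRNA label. Of the 4433 reads with 1 extra base, 4328 had 0 deposited mismatches. Under the rRNA entry with most member reads, 4610 reads had extra upstream bases and 0 mismatches, and under the other 10 entries none did. The extra bases of those reads are therefore bases of that entry. The start 2 bases upstream had 269 reads, the one 3 bases upstream 13, and those farther out 1 or 2 each.

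Reads that started 1 base upstream, or 1 or 2 bases downstream, mostly ended in the same places, in other proportions. This does not hold for every start: 5 bases downstream, with 377 reads, the most frequent end was base 28. With 1 extra base upstream, 32.2% of the reads ended at base 29 or 30 of 28S (30.8 to 33.6) and 44.7% at bases 34 to 36 (43.2 to 46.2), against 24.0% and 61.5% for the members. Starting 1 base downstream, 23.6% (20.1 to 27.5) and 56.3% (52.0 to 60.6) ended there, and starting 2 bases downstream 19.5% (16.9 to 22.3) and 51.2% (47.8 to 54.6). At base 36 alone, 5.28% of the reads that start 2 bases downstream ended, against 24.5% of the members. For the start 1 base upstream, 831 reads ended at base 30, 828 at base 36 and 801 at base 35, which do not differ beyond counting error. The fractions lie within 1 library, and counting intervals do not include variation between libraries.

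In the mouse, the same search gave 574 reads, of which 89.0% (86.2 to 91.5) were members. The start 1 base downstream had 20 reads, and each of the other 13 starts 8 or fewer. No mouse read of the region reached past base 40, and 37 of the 574 reached past base 20. The rRNA label held 3 of these mouse reads, against 28153 of the 105031 rat reads.

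**Figure D3:**
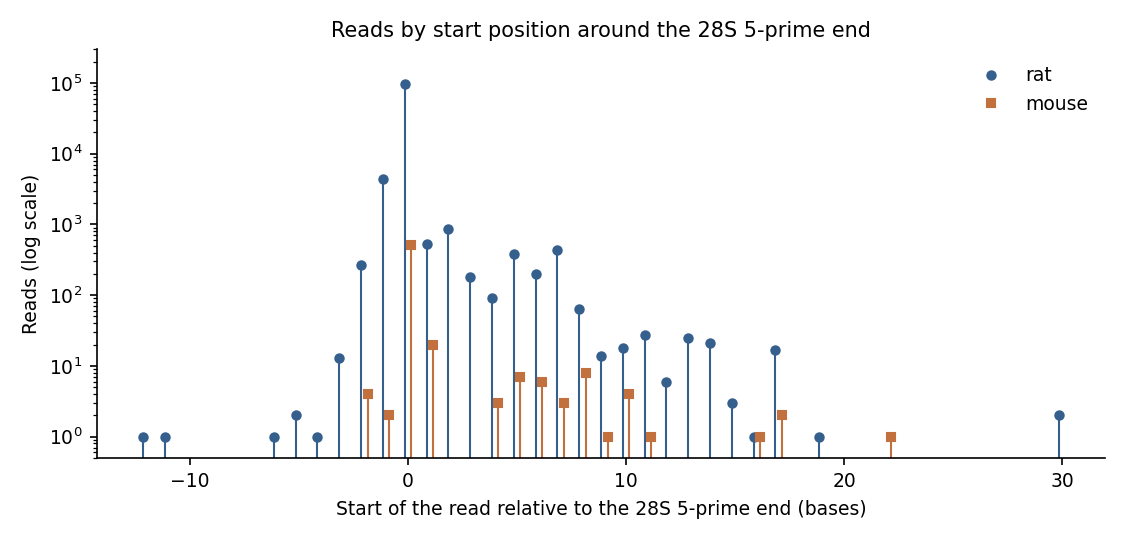
Reads (y axis, log scale) by the position at which they begin relative to the 28S 5′ end (x axis, bases, negative values upstream), for the rat (circles) and the mouse (squares). In both libraries the highest point is at 0, with 97451 rat and 511 mouse reads, and the next rat point is 4433 reads at 1 base upstream. The start at 0 was chosen through its rat reads.

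Of the rat member reads, 97.0% had 0 deposited mismatches (94549 reads), 2.80% had 1 and 0.182% had 2, the most that the tables allow. The deposited mismatches equalled the departures from the majority base in 512 of 516 sequences. From base 19 to base 36, each covered by at least 26104 reads, 0.198% of the bases read departed from the majority, and the median over the 18 positions was 0.0877%. The first 18 bases were fixed by the choice of members and are not in these departure numbers. The mismatch shares cover whole reads, whose first 18 bases could not differ from the shared start. With up to 1 substitution allowed there, 95.5% of the reads had 0 mismatches.

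A single position held much of the departure. At base 23, a C, 1.28% of 96435 reads (1.21 to 1.35) had another base, 14.6 times the median, and this position held 42.5% of all departing bases between 19 and 36. All 3 other bases occurred there: C23A in 693 reads, C23T in 342 and C23G in 197. The next highest position was base 29, at 0.325%, with G29C in 171 reads. The most abundant sequence with a departure had 180 reads and is shown with the substituted base in capitals.

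Member of 35 nt with C23A: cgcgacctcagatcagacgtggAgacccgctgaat

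The departure at base 23 was present in every group of lengths between 23 and 43 nt, from 0.913% to 1.87%. It was 1.15% among reads of 29 and 30 nt, 1.41% at 34 nt, 1.59% at 35 nt and 0.913% at 36 nt. By label it was 1.35% among mRNA-labelled reads, 1.63% among rRNA-labelled reads and 0.280% among piRNA-labelled reads (34 of 12129, interval 0.194 to 0.392). Each sequence carries its own label, so a variant and its rung can fall under different labels.

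In reads of the 3 best covered starts within 2 bases of the end, departures were more frequent at read position 23 than at the same base of 28S. In reads that start 1 base upstream, the same C is read at position 24, and 0.0492% of 4066 reads departed there (0.00596 to 0.178). At read position 23 of those reads, which is a G of the template, 1.005% of 4080 departed (0.722 to 1.36). In reads that start 1 base downstream, 0 of 514 departed at the C (0 to 0.715), and 3.16% of 506 did at read position 23 (1.82 to 5.08). In reads that start 2 bases downstream the values were 0 of 853 (0 to 0.432) and 1.93% of 829 (1.11 to 3.12). The other starts within 4 bases had few reads: 2 bases upstream, 0 of 252 departed at the C and 1 of 252 at read position 23, 3 bases downstream 0 of 180 and 3 of 176, and 4 bases downstream 0 of 90 and 1 of 82. These do not separate the positions beyond counting error.

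Other RNAs showed the same position. Among the 50 other abundant rat starts, 49 had at least 1000 reads at read position 23, and their departures there had a median of 1.01%, between 0.515% and 2.99%. Of the 49, 18 were higher than the members. The median over all positions and starts was 0.109%. In the mouse the median at position 23 over 38 starts was 1.10%. The comparison of read positions was chosen after the values at base 23 had been seen.

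**Figure D4:**
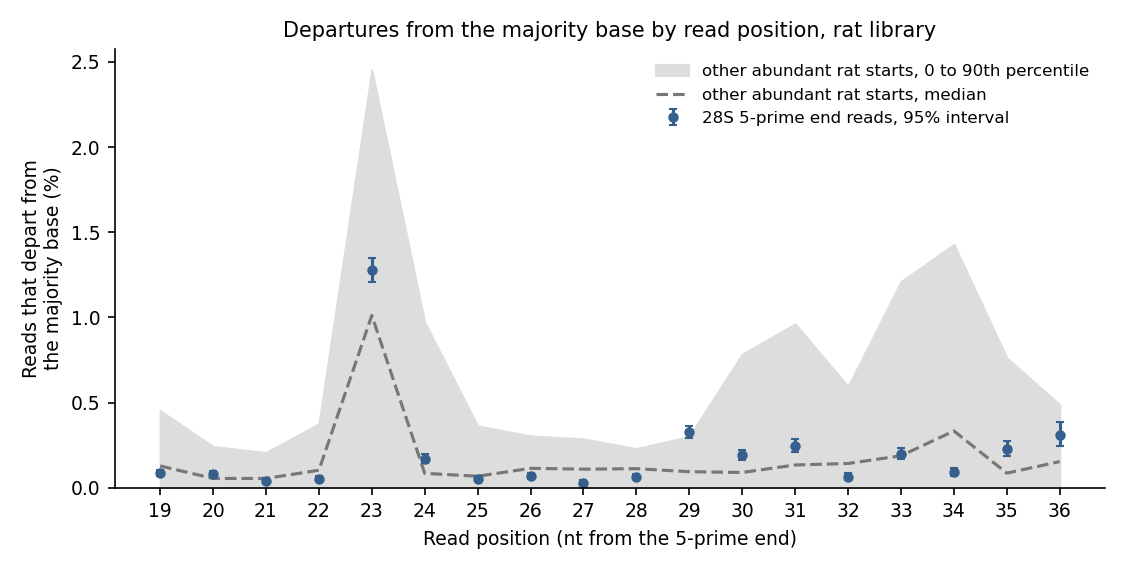
Share of rat reads that depart from the majority base (y axis, percent) at each read position from 19 to 36 (x axis), for the members (points with exact 95% intervals), beside the median (dashed line) and the span from 0 to the 90th percentile (grey) of the other abundant rat starts. Position 23 stands out at 1.28% in the members, and the dashed line peaks at the same position, at 1.01%.

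**Figure D5:**
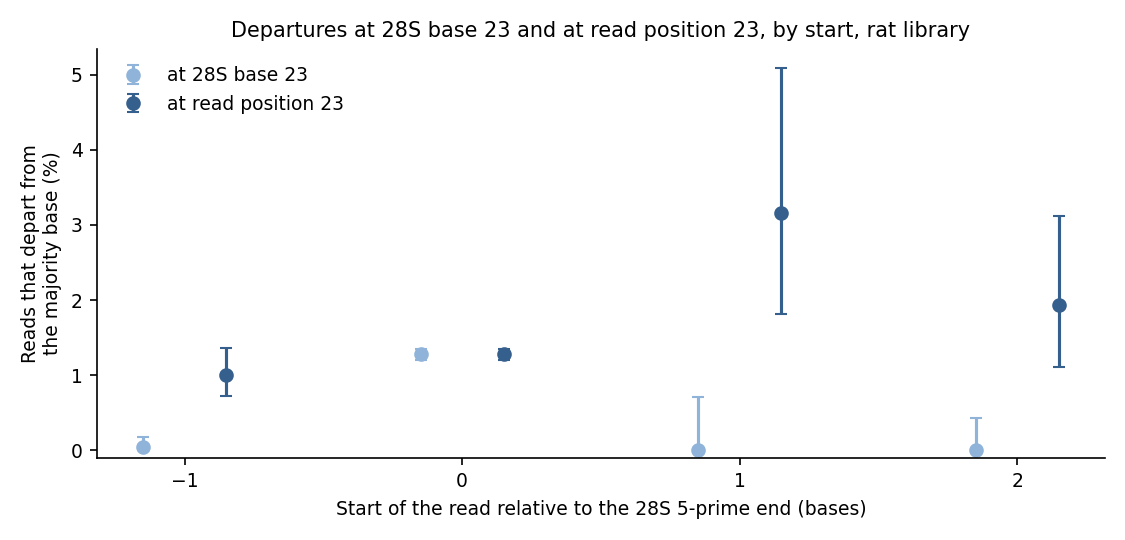
Share of rat reads that depart from the majority base (y axis, percent, exact 95% intervals) at base 23 of 28S (light points) and at read position 23 (dark points), by the start of the read relative to the 28S 5′ end (x axis, bases). Of the 4 starts drawn, from 1 base upstream to 2 downstream, the light points lie near 0 for all but the members' own, where both are the same 1.28%, and the dark points lie at 1.005% or above.

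At the 3′ end, departures over all positions together were more frequent on the last base of a read than inside it. Of the last bases from 19 to 36, 0.323% departed, against 0.189% of the inside bases, position 23 included. That position held 1219 of the 2593 departing inside bases. At base 33 the last base departed in 1.21% of 5045 reads, with A33G in 103 reads in all, against 0.117% when the read went on. At some bases the order was the other way, among them base 29, with 0.210% at the last base and 0.343% inside, and base 36, with 0.272% and 0.718%. Beyond base 36 coverage fell to between 1453 and 2229 reads and departures rose to between 0.861% and 2.51%, so those values rest on far fewer reads. Other abundant starts also had raised values at read position 37. Their median there was 1.25% in the rat (6 starts) and 1.09% in the mouse (7 starts), against 2.51% for the members (1.90 to 3.25). The cause was not tested.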

How the data were processed

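The authors deposited 1 table of raw read counts per library, listing for each distinct sequence its count, strand, assigned entry and mismatches (at most 2), where the entries belong to GenBank, Rfam or miRBase per the file headers. The submitters' processing notes name Bowtie 0.12.7 and the genome builds rn5 and mm9 without a role. The sources used here do not describe adapter trimming. Sequences on the minus strand were reverse-complemented; no member was among them. Labels were read from the entry names. Majority bases were taken by reads, and departures and lengths counted from them, with code tested on simulated data. Shares carry exact Clopper-Pearson and counts exact Poisson 95% intervals (Python 3.11.15, SciPy 1.17.1). PCR copies of a molecule are not independent, so these cover counting error only. With 3 counts as the limit, 0 reads allow up to 0.000143% of the rat and 0.000434% of the mouse reads. The sequences named were the most abundant of each length, label and neighbouring start, the top 10 and all mouse members, and those that carry a result are printed. Members and alternatives were chosen with earlier results of these data known. As a check of the labelled cell type, the germ cell miRNA miR-34c-5p had 5785 rat and 255 mouse reads by name, the stromal miR-143-3p 813 and 2392, and the red cell miR-451a 0 and 8. In the mouse library the stromal miRNA thus had more reads than the germ cell one, the reverse of the rat, so the check does not bear out the mouse label. The part of other cells in the fragment counts was not tested.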

Additional observations from a re-analysis of the deposited data

How the results depend on the processing

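With 1 library per species the alternatives change values and no test. Intervals were narrow, so most alternatives moved a value past its counting interval; 27 of 80 did not, and the most frequent length moved to 35 nt only with rRNA-labelled sequences or without the top sequence. No paired analysis was possible because each species has 1 library. The rat and mouse shares of listed reads became 4.71% and 0.0813% with up to 1 substitution in the first 18 nt, 1.08% and 0% with rRNA-labelled sequences only, 5.12% and 0.0895% among sequences of at least 10 reads, 0.376% and 0.00231% over distinct sequences, 3.57% and 0.000145% without the top member sequence, 5.98% and 0.139% among sequences with 0 mismatches, and 9.03% and 0.388% per rRNA-labelled read. The rat share became 4.86% with 1 to 5 extra bases allowed. Limited to 18 to 20 nt, an alternative chosen after seeing the data, the order reversed, with 0.787% and 1.35%, through the reads of 18 nt.

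The share at the most frequent length became 24.2% with extra bases, 91.5% with the rRNA label, 15.9% over distinct sequences and 28.5% without the top sequence. In the same order the share of 18 to 25 nt became 3.39%, 0.0705%, 4.26% and 3.97%. The share on the ladder and that with 0 mismatches became 95.5% and 95.5% with 1 substitution, 96.7% and 96.7% with the rRNA label, 98.0% and 98.0% at 10 reads or more, 5.62% and 5.81% over distinct sequences, 96.1% and 96.1% without the top sequence and 96.9% and 96.9% by the first 15 nt. Among sequences with 0 mismatches, 99.9989% were on the ladder. The rRNA-labelled and piRNA-labelled shares became 26.8% and 11.9% with extra bases, 21.1% and 4.65% over distinct sequences, and 30.6% and 16.4% without the top sequence. The piRNA-labelled share was 12.7% with 0 mismatches. The label shares within rRNA-labelled sequences, and the 0-mismatch share within sequences with 0 mismatches, are fixed by construction and were not given. Over distinct sequences, chosen after seeing the data, departures at base 23 were 11.98% and starts at the end 58.1% of the region. The mouse rests on 2 sequences, and unlisted identifiers limit its long reads. Both libraries have unlisted identifiers, so the shares of both are of listed reads only.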

Other observations

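Reads with exactly 1 substitution in the first 18 nt, which the choice of members left out, numbered 1557 in 404 rat sequences, 1.60% of the member reads, and 51 in 29 mouse sequences, 9.98%. In the rat the most frequent were G2A with 165 reads, G2C with 90 and G2T with 89, and in the mouse C1T with 8.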
